A study of Mus musculus with 8 samples.

Results

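Liver RNA of untreated male FVB/N mice aged 3 months that lack Abcb4 (KO, 2 arrays) was compared with that of untreated wild-type males of the same strain and age (WT, 2 arrays). These 4 arrays, chosen by their titles, are part of a series of 8. The other 4 arrays hold livers of the same knockout treated with norUDCA, a bile acid with a shortened side chain, over 3 days (2 arrays) or 4 weeks (2 arrays), and served here to estimate the spread between replicates. The study measured how loss of Abcb4, and then the drug, altered the liver transcriptome on single-colour Applied Biosystems arrays. The labels do not say whether replicates were separate animals, pools or repeat hybridisations, nor how the knockout was made, so p-values measure only the spread between these samples, which may be technical. In whole liver, more cells of a type and more RNA per cell cannot be told apart.

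Abcb4, also called Mdr2 in mice, is the canalicular floppase that moves phosphatidylcholine from hepatocytes into bile. There the phospholipid forms mixed micelles with bile acids and shields the bile duct epithelium from their detergent action. Mice without the transporter secrete bile that lacks phospholipid and develop a sclerosing cholangitis, with proliferation of bile ducts, portal inflammation and fibrosis. Cholangiocyte genes, immune genes and the metabolic genes of hepatocytes are therefore the groups by which the named genes are described.

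Of 33012 gene probes, 12779 passed the filters and were tested. They carried no flag of 5000 or more on any array. Their signal over noise was 3 or more on both WT arrays or on both KO arrays. Only 311 probes (305 genes) could be named through a RefSeq identifier. Of these, 38 were flagged, 151 were too dim, and 122 probes of 120 genes were tested. Abcb4 has no named probe and was not analysed here, which leaves the knockout label without a check on its own transcript. As a check of the labelled tissue, Mup1, a major urinary protein secreted by hepatocytes, lay between 20.04 and 20.63 log2 signal on the 4 arrays, although its many near-identical paralogs may share the probe. Other defining hepatocyte genes such as Alb had no named probe. Of 38 unflagged probes for olfactory, vomeronasal and taste receptors, 1 to 4 passed the signal over noise limit per array, which shows how often probes of genes foreign to liver were called detected. Detected gene probes made up 33.3% and 41.4% of all on the WT arrays and 47.4% and 40.9% on the KO arrays. Over the tested probes, Pearson's r was 0.947 between the WT arrays, 0.975 between the KO arrays and 0.911 to 0.936 between arrays of different genotype.

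The upstream sequences of 4 named genes are shown first, because these had the largest differences among the named genes that passed the test. Each is the 250 bases before the annotated start in RefSeq's table of GRCm38.p6, read 5′ to 3′ on the gene's strand. Krt23 lies at chr11:99493121-99493370, minus strand. Wfdc2 lies at chr2:164562465-164562714, plus strand, the first of 2 starts in the table. Dio1 lies at chr4:107307169-107307418, minus strand, and Fgf21 at chr7:45615491-45615740, minus strand. Capitals mark matches on either strand to any of 3 short words: TTGCNNAA for C/EBP factors, TGANTCA for AP-1 factors, and AGGTCA for nuclear receptors.
Krt23: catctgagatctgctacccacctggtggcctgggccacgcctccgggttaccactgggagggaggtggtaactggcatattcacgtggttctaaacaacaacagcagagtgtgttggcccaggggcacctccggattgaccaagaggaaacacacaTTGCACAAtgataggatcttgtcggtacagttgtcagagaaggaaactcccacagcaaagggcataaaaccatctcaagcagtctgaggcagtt
Wfdc2: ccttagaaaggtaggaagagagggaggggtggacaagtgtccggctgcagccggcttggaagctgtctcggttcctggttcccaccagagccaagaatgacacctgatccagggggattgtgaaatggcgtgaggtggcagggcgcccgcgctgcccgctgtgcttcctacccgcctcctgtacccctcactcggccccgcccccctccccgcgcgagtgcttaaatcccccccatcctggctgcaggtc
Dio1: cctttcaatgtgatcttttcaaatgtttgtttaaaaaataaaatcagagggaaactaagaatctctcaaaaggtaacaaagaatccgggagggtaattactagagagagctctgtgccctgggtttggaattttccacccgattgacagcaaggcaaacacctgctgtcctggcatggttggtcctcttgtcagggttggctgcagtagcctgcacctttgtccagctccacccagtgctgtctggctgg
Fgf21: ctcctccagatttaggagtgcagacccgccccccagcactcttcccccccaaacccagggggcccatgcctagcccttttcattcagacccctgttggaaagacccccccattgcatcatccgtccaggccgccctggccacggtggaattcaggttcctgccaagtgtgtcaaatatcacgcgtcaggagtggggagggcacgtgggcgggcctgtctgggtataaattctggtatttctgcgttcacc
The only match lay in Krt23, a C/EBP word 94 to 87 bases before the start. Over all 32851 windows of the same length in the table, 9.56% held the C/EBP word, 6.75% the AP-1 word and 14% the nuclear receptor word. The search used letters alone, so a match is a description of the sequence, and its absence says only that these letters are not in the window.

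Both named cholangiocyte genes rose in the knockout (2 of 2 probes, against 3.21% of all tested probes called higher in KO). Both passed the filter on dim probes only through the KO arrays, an entry that favours a difference, so the count is a description. Krt23, a type I keratin on the list of ductular reaction markers (NM_033373.1), gave 6.67 and 6.10 log2 signal on the WT arrays and 10.53 and 11.01 on the KO arrays. Neither WT array detected it and both KO arrays did, with a gap of about 4 log2 units between the groups. Its mean was at least 20.6-fold higher in KO (log2 difference 4.38 ± 0.52, SE; adjusted p = 0.0152, limma). Such a bound sets the bright mean against the dim probe's own signal or the lowest detected signal of the array. It leaves out the spread between arrays, the noise of undetected spots and the choice of scaling. Wfdc2 encodes a secreted protein of ductal and other epithelia with whey acidic protein domains (NM_026323.1). It gave 6.88 and 6.93 in WT, detected on neither array, and 9.20 and 10.19 in KO, detected on both. The WT arrays lay close together and the KO arrays about 1 log2 unit apart. Its mean was 6.91-fold higher in KO, measured against an undetected WT signal (2.79 ± 0.42, SE, limma adjusted p = 0.0263). The log2 differences were smaller with arrays scaled to the same 75th percentile or by cyclic loess, at 3.65 and 3.66 for Krt23 and 2.15 and 2.11 for Wfdc2, and at 3.74 for Krt23 with 50 added to the signal. Under these 2 scalings Krt23 still passed (limma adjusted p = 0.0401 and 0.0385), while Wfdc2 did not (0.0676 and 0.0665). Of the 20 genes on the cholangiocyte list, these were the 2 with a name on the array, and the others, such as Krt7, Krt19, Sox9 and Epcam, were not analysed here.

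**Figure D1:**
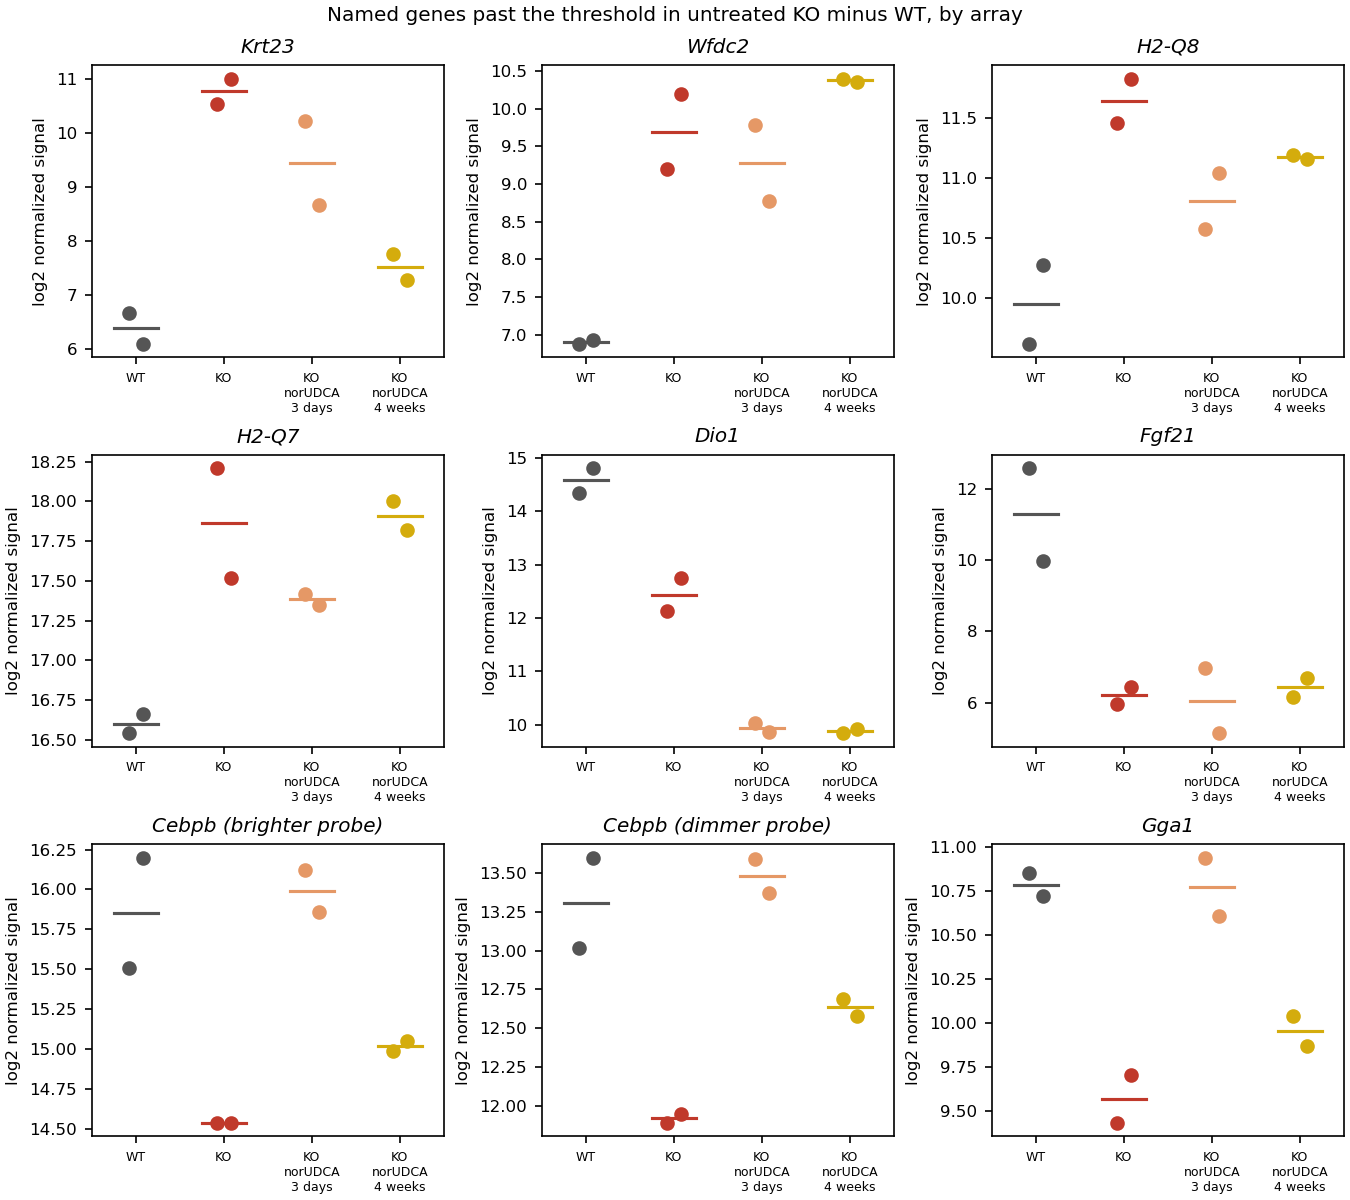
Normalized log2 signal on each of the 8 arrays (points) and group means (lines) for the 9 probes of the 8 named genes that passed the threshold in untreated KO minus WT. In every panel the KO arrays stand clear of the WT arrays, from 10.53 and 11.01 against 6.67 and 6.10 for Krt23 to 9.43 and 9.70 against 10.85 and 10.72 for Gga1. The choice of probes by this comparison favours such a gap, and groups stood apart on 53.9% of all tested probes.

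Class I histocompatibility transcripts also rose. H2-Q8, a non-classical class I antigen of the Qa-2 region (NM_023124.2), gave 9.62 and 10.28 log2 signal in WT and 11.46 and 11.83 in KO. The groups did not overlap, and the difference was 1.69 ± 0.29 (SE, 3.23-fold; adjusted p = 0.0342, limma). H2-Q7 of the same region (NM_010394.1) gave 16.54 and 16.66 in WT against 18.21 and 17.52 in KO, a difference of 1.27 ± 0.25 (SE, 2.41-fold; adjusted p = 0.0469, limma). All 4 arrays detected both genes. Class I genes of this region are close copies of each other, so the probes cannot be assumed to measure separate transcripts. These were the 2 named genes of the antigen presentation list, and both passed upward, as did 3.21% of all tested probes. This list too was chosen with earlier results of these data known, so the count is a description.

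Of 3 tested genes on the hepatocyte list, 2 fell (3 of 4 probes, median difference -1.35) and Mup1 did not pass. Of all tested probes 1.47% were called lower in KO, and their median difference was 0.09. Lists were chosen with earlier results of these data known, and both Cebpb probes are among those that fell. The count is therefore a description. Dio1, the selenoenzyme of liver and kidney that converts thyroxine to its active form (NM_007860.1), gave 14.35 and 14.81 log2 signal in WT and 12.13 and 12.75 in KO, all detected. The log2 difference was -2.14 ± 0.27 (SE; 4.42-fold lower in KO, adjusted p = 0.0169, limma), with replicate SDs of 0.33 and 0.44. Cebpb, a bZIP transcription factor of hepatocyte differentiation, regeneration and the acute phase (NM_009883.1), was measured by 2 probes. The brighter gave 15.51 and 16.20 in WT and 14.54 and 14.54 in KO, and the dimmer 13.02 and 13.60 in WT and 11.89 and 11.95 in KO. On each probe the KO arrays lay closer together than the WT arrays and below them. The differences were -1.32 ± 0.25 on the brighter and -1.39 ± 0.23 on the dimmer probe (SE; adjusted p = 0.0428 and 0.0328, limma). Mup1, the third named gene of the hepatocyte list, gave 20.63 and 20.04 in WT and 20.07 and 20.48 in KO. The groups overlapped (-0.06 ± 0.29, limma adjusted p = 0.917), and the sign turned without WT replicate 1 or KO replicate 1. The difference near 0 depended on the scaling. It was -0.99 with arrays scaled to the same 75th percentile, -0.69 by cyclic loess and -0.45 with the same median. Mup1 passed under none of these.

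Fgf21, the fasting hormone that hepatocytes release under control of the fatty acid sensor PPAR alpha (NM_020013.2), gave 12.58 and 9.98 log2 signal in WT and 5.96 and 6.45 in KO. It was detected on both WT arrays, which lay far apart (SD 1.84), and on neither KO array. Its mean was 33.5-fold lower in KO, where the signal was not detected (fell by 5.07 ± 0.92, SE, limma adjusted p = 0.038). The difference was -3.77 without WT replicate 1 and -6.37 without WT replicate 2, so the size of the fold depends on which WT array is used. Fgf21 passed the filter through the WT arrays alone. The other 2 tested genes of the fatty acid oxidation and fasting list did not pass. G6pc, the phosphatase that releases glucose from liver, gave 16.15 and 15.76 in WT and 15.50 and 15.35 in KO (-0.53 ± 0.34, adjusted p = 0.384). Aldh3a2, a fatty aldehyde dehydrogenase, gave 12.04 and 12.10 in WT and 12.36 and 12.03 in KO (0.13 ± 0.18, adjusted p = 0.699), with overlapping groups. The labels do not give the feeding state or time of day at which tissue was taken.

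The last named gene past the threshold belongs to none of the lists. Gga1, a clathrin adaptor that sorts receptors at the trans-Golgi network (NM_145929.1), gave 10.85 and 10.72 log2 signal in WT and 9.43 and 9.70 in KO. It fell by 1.22 ± 0.20 (SE, 2.32-fold lower; adjusted p = 0.0315, limma), with replicate SDs of 0.09 and 0.19 log2.

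In all, 9 of the 122 named probes (7.38%) passed, 4 upward and 5 downward, against 4.68% of all tested probes. By direction the shares were 3.28% of named and 3.21% of all probes upward, and 4.1% of named and 1.47% of all probes downward. The downward count holds both Cebpb probes. Of the named probes, 33 were detected on fewer than the 4 arrays and entered through 1 genotype alone, which for most of them was the one where they were brighter, so that this entry favours a difference. Of the 89 named probes detected on all 4 arrays, 6 passed (6.74%), against 3.00% of all such probes (1.44% upward and 1.56% downward). Both KO arrays lay above both WT arrays on 43 named probes (35.2%, against 31.5% of all tested) and below them on 28 (23%, against 22.4%), and the remaining 51 overlapped. Groups stood apart in either direction on 53.9% of all tested probes, so standing apart was the usual case over these 4 arrays. The median log2 difference was 0.13 over the named probes and 0.09 over all tested probes.

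The calls rest in part on the spread estimated with the 4 treated arrays. With the 4 WT and KO arrays alone, 0.0235% of all tested probes passed by limma and no named gene did (adjusted p = 0.0597 for Krt23, 0.102 for Wfdc2, 0.109 for Dio1 and 0.13 to 0.177 for the others). Each probe lost its call in 4 to 10 of 17 or 18 alternatives, and none changed direction in any of them. Without KO replicate 1 no named gene passed, and without KO replicate 2 Dio1 and H2-Q7 remained of the 8. Without WT replicate 1 Krt23, Wfdc2, Dio1, Fgf21 and Cebpb were among the genes called, while without WT replicate 2 all 8 were.

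**Figure D2:**
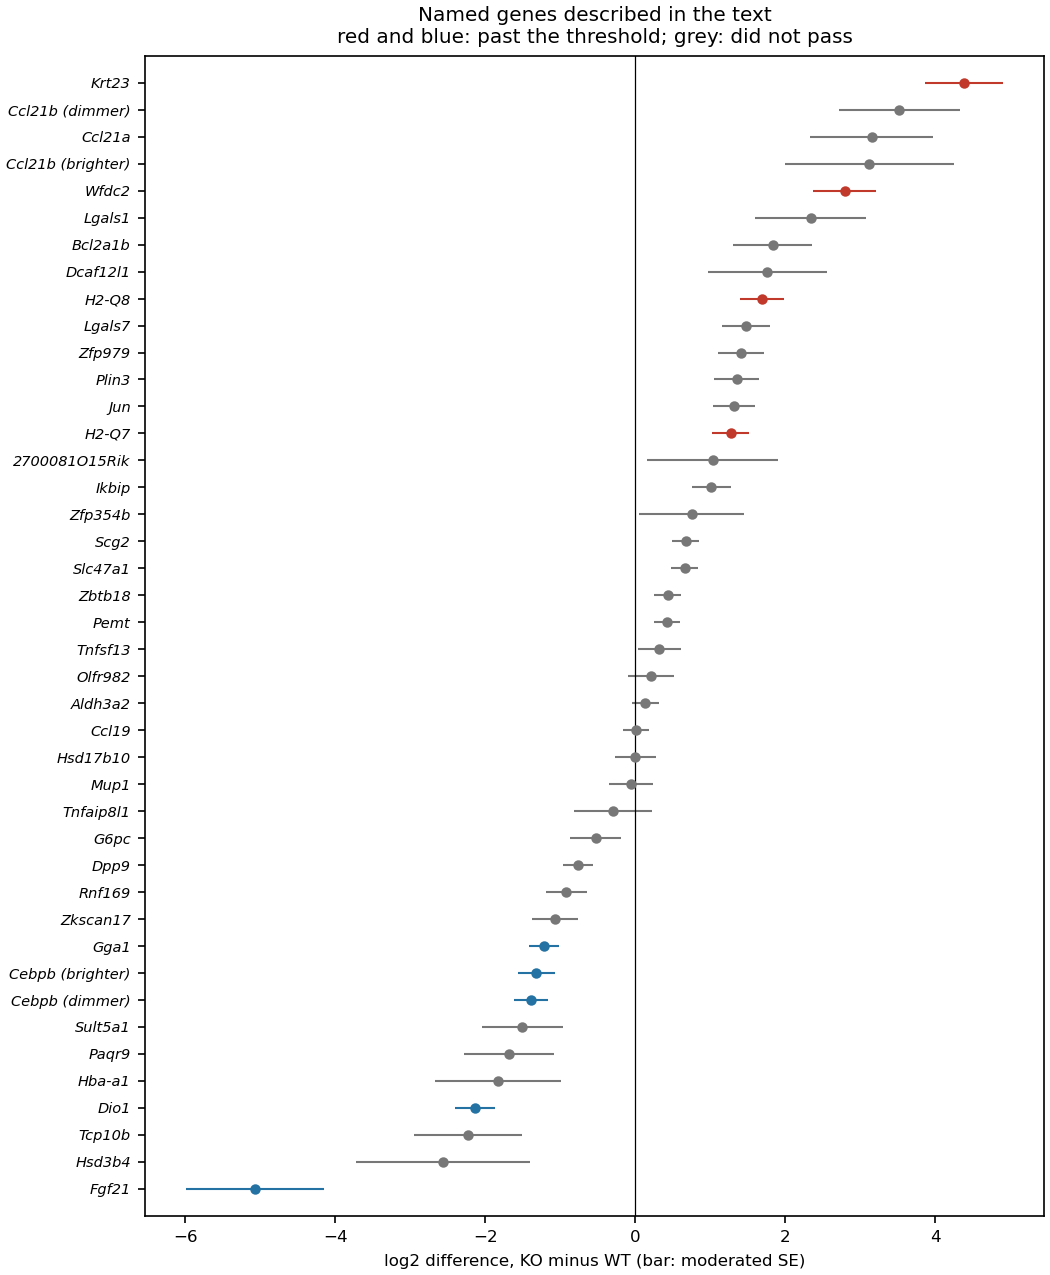
Log2 difference in signal, KO minus WT, with its moderated SE (bars), for the 42 probes of 40 named genes that the naming rule selects. The probes past the threshold (red, higher in KO; blue, lower) run from 4.38 for Krt23 to -5.07 for Fgf21, and grey genes such as Ccl21a or Hsd3b4 lie far from 0 with wide bars.

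None of the tested genes of the chemokine and cytokine list passed. Ccl21a and Ccl21b encode near-identical copies of a chemokine of lymphatic endothelium and lymphoid stroma that draws Ccr7-bearing T cells and dendritic cells, and their probes cannot be assumed to tell them apart. The Ccl21a probe gave 6.17 and 7.72 log2 signal in WT and 9.30 and 10.90 in KO (3.15 ± 0.82, SE; adjusted p = 0.0804). The dimmer Ccl21b probe gave 6.33 and 7.17 against 9.41 and 11.12 (3.52 ± 0.81, adjusted p = 0.0631), and the brighter had means of 7.44 (SD 2.20, n = 2) in WT and 10.56 (SD 1.14, n = 2) in KO (3.12 ± 1.13, limma adjusted p = 0.156). KO replicate 2 was the highest array on each of these probes, and replicate SDs ran from 0.59 to 2.20 log2. Ccl19, the other Ccr7 ligand, gave 8.75 and 8.91 in WT and 8.78 and 8.90 in KO (0.01 ± 0.17, adjusted p = 0.988), a value whose sign turned under other scalings. Of the chemokine and cytokine list, 5 genes (6 probes) were tested and 0 passed, with 3 probes at an unadjusted p under 0.05 by limma, against 25.1% of all tested probes.

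Bcl2a1b, an anti-apoptotic gene of neutrophils and other leukocytes with close paralogs, gave 9.31 and 7.76 log2 signal in WT and 9.90 and 10.83 in KO (1.83 ± 0.53, SE; adjusted p = 0.101). It was the only named neutrophil marker, detected on 1 of the 2 WT arrays. Tnfsf13, a B-cell survival factor, gave 9.57 and 9.75 in WT and 9.74 and 10.21 in KO (0.32 ± 0.29, adjusted p = 0.536). Tnfaip8l1, which entered this list by the start of its name alone, gave -0.30 ± 0.52 (adjusted p = 0.762) and changed sign when arrays were scaled to the same median. Markers of macrophages, T and NK cells, B cells and stellate cells had no tested probe. Endothelium and lymphatics had none besides the Ccl21 probes given above. The presence and makeup of an immune infiltrate were therefore not analysed here.

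Galectin genes and Jun did not pass, though both KO arrays lay above both WT arrays, as on 31.5% of all tested probes. Lgals1, a galactoside-binding lectin of stroma and activated leukocytes, gave 11.99 and 9.79 log2 signal in WT and 12.80 and 13.66 in KO (2.34 ± 0.74, SE; adjusted p = 0.119). Its WT arrays lay further from each other (SD 1.56) than the higher of them lay from the lower KO array. Lgals7, a lectin of stratified epithelia, gave 7.75 and 7.83 in WT, detected on neither array, and 9.13 and 9.42 in KO (1.48 ± 0.32, 2.8-fold, limma adjusted p = 0.0575). Jun, the AP-1 subunit induced by injury and growth signals, gave 11.70 and 11.07 in WT and 12.94 and 12.48 in KO (1.32 ± 0.28, adjusted p = 0.0527). Jun passed in 7 of 18 alternatives and Lgals7 in 3 of 17, and neither changed direction in any.

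Genes of lipid handling and conjugation followed, and none of them passed. Plin3, a coat protein of nascent lipid droplets, gave 11.12 and 10.82 log2 signal in WT and 12.76 and 11.90 in KO (1.35 ± 0.30, SE; adjusted p = 0.0582), and passed in 7 of 18 alternatives. Pemt, which makes phosphatidylcholine by methylating phosphatidylethanolamine, gave 15.19 and 15.28 in WT and 15.68 and 15.62 in KO. Its replicates lay close together (SD 0.06 and 0.04) and the genotypes differed by 0.42 ± 0.17 (adjusted p = 0.197). Hsd3b4, of the 3-beta-hydroxysteroid dehydrogenase family, gave 15.54 and 15.11 in WT and 14.28 and 11.23 in KO (-2.57 ± 1.16, adjusted p = 0.227). KO replicate 2 lay far below KO replicate 1 (SD 2.15), and paralogs may share the probe. Sult5a1, a sulfotransferase, gave 13.66 and 14.25 in WT and 12.78 and 12.09 in KO (-1.51 ± 0.54, adjusted p = 0.153). Hsd17b10, a mitochondrial dehydrogenase, gave means of 14.45 in both genotypes (adjusted p = 1), with a sign that turned with arrays scaled to the same median. Slc47a1, the exporter that moves organic cations into bile, gave 12.84 and 12.65 in WT and 13.54 and 13.27 in KO (0.66 ± 0.18, adjusted p = 0.0913). Gpbar1, the membrane bile acid receptor, was detected on 1 WT array and no KO array and was not tested.

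Hba-a1, a haemoglobin chain and the only named erythroid marker, gave 19.04 and 16.17 log2 signal in WT and 15.93 and 15.63 in KO (-1.83 ± 0.84, SE; adjusted p = 0.234). WT replicate 1 alone stood above the others (WT SD 2.03, KO SD 0.22). The part of red cell RNA in the other differences was not tested. Tcp10b, a t-complex gene, and Paqr9, of the progestin and adipoQ receptor family, were likewise highest on WT replicate 1, with 14.10 and 11.95 in WT against 10.49 and 11.09 in KO (adjusted p = 0.124), and with 15.40 and 14.05 in WT against 13.11 and 12.96 in KO (adjusted p = 0.152). Dcaf12l1 gave 6.48 and 9.17 in WT and 9.72 and 9.45 in KO (adjusted p = 0.223), so that here WT replicate 1 was the low array.

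Of 4 tested zinc finger genes, none passed, which at a background of 4.68% says nothing about the list. Zfp979 gave 8.59 and 8.35 log2 signal in WT and 9.53 and 10.24 in KO (1.41 ± 0.31, SE; adjusted p = 0.0584). Zkscan17 gave 10.56 and 10.76 in WT and 9.85 and 9.33 in KO (-1.07 ± 0.31, adjusted p = 0.0996). Zbtb18, a transcriptional repressor, and Zfp354b differed by 0.43 ± 0.18 and 0.75 ± 0.70 (adjusted p = 0.195 and 0.548), and Zfp354b, detected on no WT array, turned sign with the 75th percentile. The remaining genes among the 20 with the largest moderated t were Ikbip (1.01 ± 0.26, adjusted p = 0.0761), Scg2, a granule protein of neuroendocrine cells (0.67 ± 0.18, adjusted p = 0.0837), the peptidase Dpp9 (-0.77 ± 0.20, adjusted p = 0.0795) and Rnf169, a RING finger protein of the DNA break response (-0.92 ± 0.27, adjusted p = 0.0999). For each of these 4, both KO arrays lay on one side of both WT arrays, as on 53.9% of all tested probes. Their choice by a large moderated t favours such a gap. Scg2, detected on no WT array, changed sign, to -0.18, when arrays were scaled to the same 75th percentile. Olfr982, an olfactory receptor, and 2700081O15Rik, a RIKEN transcript, had overlapping groups (adjusted p = 0.716 and 0.509). The other 80 named probes had differences from -0.88 to 1.75 and adjusted p-values of 0.114 or more. Of all 122 named probes, 62 differed by less than 0.5 log2 units.

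Across all 12779 tested probes, 598 changed between the genotypes by limma, 410 upward and 188 downward. Most calls were of probes without a name. Differences of 3 log2 units or more were found for 50 of the rises and 28 of the falls, and differences under 1 for 23 and 20. A set of 928 probes was detected on both KO arrays but no WT array, and 206 of them rose. The reverse set, seen in WT alone, held 103 probes, of which 26 fell. Probes in these classes were chosen by a difference in detection, so their shares of calls (22.2% and 25.2%) are a description. Detection used signal over noise as deposited, and before any scaling the WT arrays were the dimmer ones. Their 75th percentiles over all gene probes were 396.8 and 643.8, against 1346 and 982.3 on the KO arrays. The part of array brightness in the larger number of probes detected in KO alone was not tested. Among the 9565 probes detected on all 4 arrays the calls were even, with 138 up and 149 down. The median gap between replicate arrays was 0.31 log2 units in WT and 0.27 in KO, and the median absolute difference between genotypes was 0.37.

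**Figure D3:**
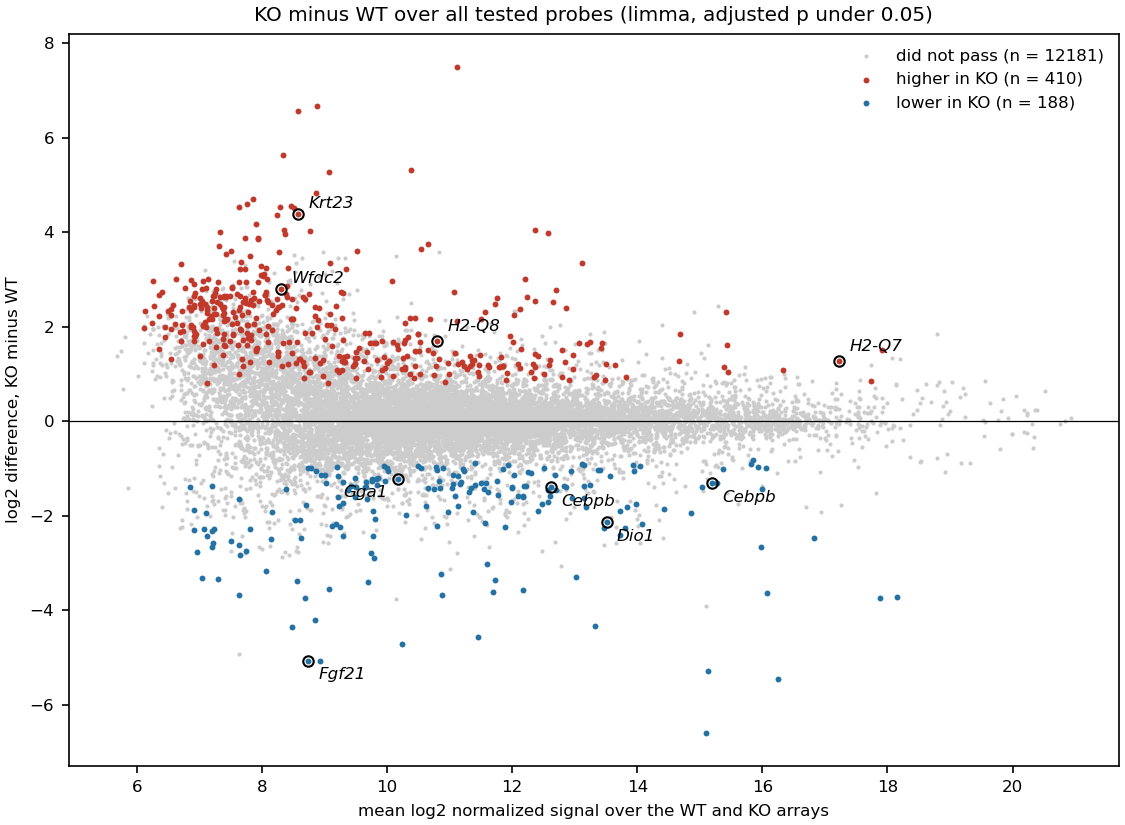
Log2 difference, KO minus WT, against the mean log2 signal of the 4 arrays for 12779 tested probes, with 410 called higher (red) and 188 called lower (blue); circles mark the named genes past the threshold. Called rises gather at low mean signal, where Krt23 and Wfdc2 lie, and called falls spread over the whole range.

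The unnamed probes held the widest differences. Their identifiers are those of the array's design, mostly Celera and GenBank numbers, and were not matched to gene names here. The largest rise was on the probe for mCG18592.1, with 7.09 and 7.65 log2 signal in WT, detected on neither array, and 14.91 and 14.81 in KO (7.49 ± 0.30, SE, 180-fold, limma adjusted p = 0.000702). The probe for AK028310.1 followed, with 5.59 and 5.51 in WT and 12.32 and 12.11 in KO (6.66 ± 0.19, SE; at least 78.6-fold, limma adjusted p = 0.000175). For both identifiers replicate SDs were 0.39 or less. The largest fall was on the probe for mCG51120.2, with 17.92 and 18.88 in WT and 11.22 and 12.41 in KO (-6.59 ± 0.59, SE; adjusted p = 0.00723, limma). The identifier mCG14666.2 has 2 probes, and both fell, with differences of -5.46 ± 0.61 and -5.28 ± 0.61 (adjusted p = 0.013 and 0.014, limma). With the 4 WT and KO arrays alone 3 probes passed by limma, all higher in KO: mCG18592.1, AK028310.1 and mCG3583.1 (adjusted p = 0.0395 each), the last named after its value was seen.

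The count and direction of the calls moved with the scaling of the arrays. Higher in KO were 68.6% of calls as reported, 88.3% (1280 up, 169 down) with arrays scaled to the same median, 53.2% (232 up, 204 down) with the same 75th percentile and 55.5% (222 up, 178 down) with cyclic loess. Scaling to the median moved the median difference of all tested probes from 0.09 to 0.56 log2, so a probe with a difference near 0 would there count as higher. Positive control spots were brighter on both KO arrays, with median signals of 6653 and 7913 against 1691 and 2062 on the WT arrays, and their part in these differences was not tested. Without KO replicate 1 the count was 40, without KO replicate 2 it was 176, without WT replicate 2 it was 1642 and without WT replicate 1 it was 617.

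**Figure D4:**
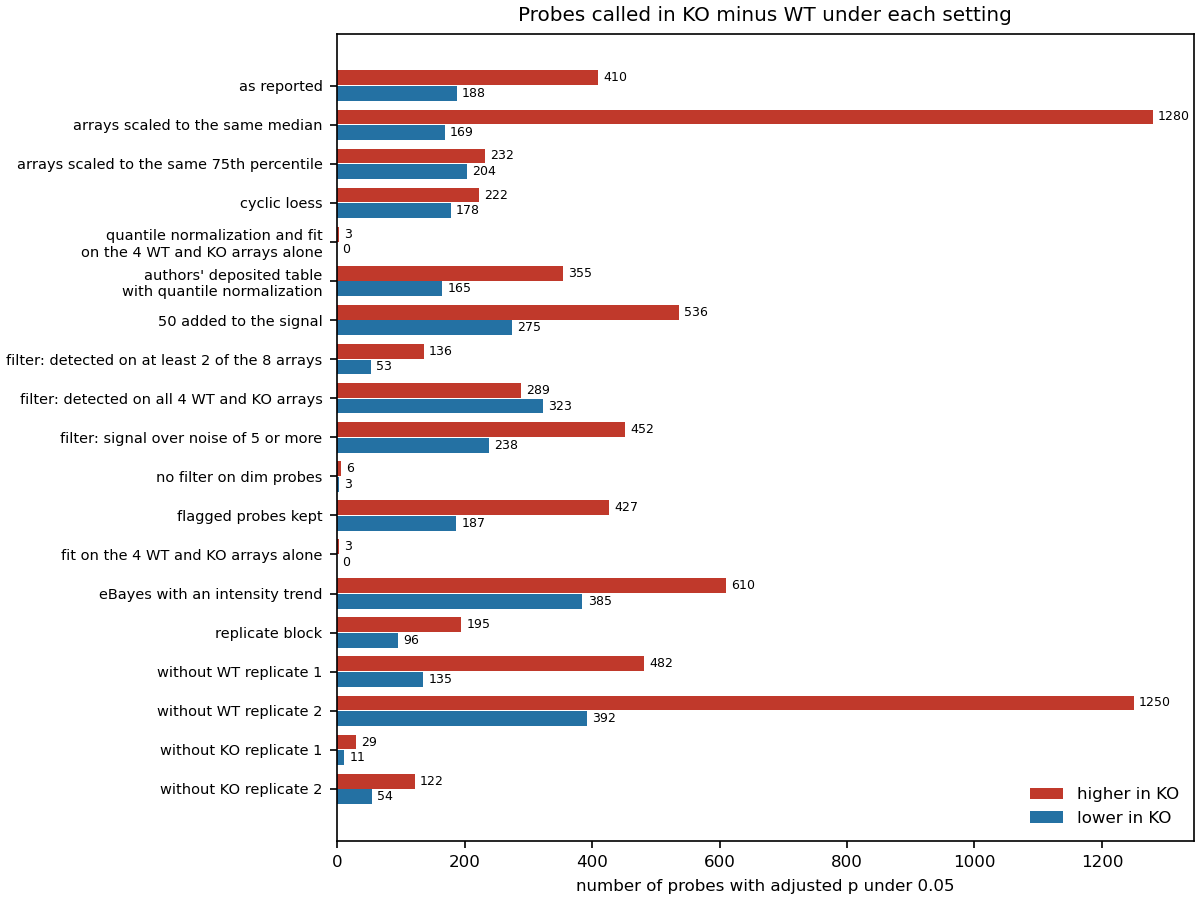
Number of probes with adjusted p under 0.05 in KO minus WT, higher (red) and lower (blue) in KO, under the reported setting and each alternative. The number of rises runs from 3 (with 0 falls) with the 4 WT and KO arrays alone to 1280 with arrays scaled to the same median.

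Levels in the treated knockouts are given beside those of WT and untreated KO as a description, with no test. The time of the longer treatment is that of the labels, 4 weeks, while the names of the deposited files for that group give a shorter one. Mean log2 signal of Krt23 was 6.39 in WT, 10.77 in KO, 9.45 after 3 days of norUDCA and 7.53 after 4 weeks. That of Wfdc2 was 6.91, 9.69, 9.29 and 10.38 in the same order, and that of Dio1 14.58, 12.44, 9.95 and 9.89. Fgf21 gave 11.28, 6.21, 6.06 and 6.43, and Gga1 10.78, 9.56, 10.77 and 9.96. The dimmer Cebpb probe gave 13.31, 11.92, 13.48 and 12.64. H2-Q8 gave 9.95, 11.64, 10.81 and 11.18, and H2-Q7 gave 16.60, 17.87, 17.38 and 17.91. Treated means of Krt23, H2-Q8, H2-Q7 and Wfdc2 all lay above WT, and those of Dio1 and Fgf21 below it. Means of Cebpb and Gga1 lay within the range of the WT arrays after 3 days and below that range after 4 weeks. All these genes were chosen by their difference in untreated KO, and such a choice can favour values nearer WT on other arrays.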

How the data were processed

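Each deposited scanner file gives, per the file headers, a signal, a signal over noise and quality flags for each spot. The deposited signal is a linear intensity with background already removed, and the deposited series table holds the same arrays' intensity after division by factors set for each array. Signal over noise is a score used as deposited by the authors. The image analysis software is not given in the sources used here, nor are slides or scan dates.

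Spots flagged at 5000 or above on at least 1 array (4153 probes) were dropped. The other 28859 were put on the log2 scale and quantile-normalized. Probes whose signal over noise reached 3 on both WT or both KO arrays were tested with limma 3.58.1 in R 4.3.3, over all 8 arrays (4 residual and 2.39 prior degrees of freedom), two-sided, with Benjamini-Hochberg adjustment over 12779 probes and a threshold of 0.05. The fit was tested on simulated data. A probe under the signal over noise limit is called not detected.

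Names came from 517 RefSeq identifiers matched to a RefSeq table of GRCm38.p6, of which 311 matched. Named in the text are genes past the threshold, tested list members, the 20 largest moderated t values, the 5 highest and 5 lowest differences among genes detected on all 4 arrays, and the 2 largest unnamed rises and falls. Members and lists were chosen with earlier results of these data known. Alternatives covered scaling, the filter, flags, the arrays in the fit, the prior, a block and each array left out. The number of arrays limits the precision.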

Additional observations from a re-analysis of the deposited data

Results flagged for a closer look

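Positive control spots, which enter no comparison of genes, were brighter on the KO arrays than on the WT controls. Their median signal over 129 spots was 6653 and 7913 on the KO arrays against 1691 and 2062 on the WT arrays, so the lower KO array was 3.23 times the higher WT array. On the treated knockout arrays it was 6104 to 7003, so the WT arrays stood apart from all the others. Hybridization control spots differed less, with medians of 144515 and 145375 in KO and 116129 and 137670 in WT.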

How the results depend on the processing

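Of the alternatives to the 598 probes changed by limma, the count was 1449 with arrays scaled to the same median, 995 with an intensity trend in the prior, 189 over probes detected on at least 2 of the 8 arrays, 9 with no filter on dim probes, and 3 with the 4 WT and KO arrays alone, whether these were normalized apart or with the others. Leaving out 1 array gave 40 to 1642. With the replicate number as a block it was 291, but the numbers do not pair the samples: replicate differences in WT and KO correlated at -0.052. The other alternatives gave 400 to 811. Among named genes, those past the threshold kept their direction in each alternative run. Signs turned for genes that did not pass: Scg2 (-0.18) and Zfp354b (-0.01) with the 75th percentile, Tnfaip8l1 (0.28) and Hsd17b10 (0.46) with the median, Ccl19 with the 75th percentile (-0.09) and loess (-0.07), and Hsd17b10 (0.00) with flagged probes kept. Without WT replicate 1 they turned for 2700081O15Rik (range over arrays left out -0.32 to 2.38), Tnfaip8l1 (-1.06 to 0.46), Mup1 (-0.36 to 0.23) and Ccl19 (-0.07), without WT replicate 2 for Hsd17b10 (-0.31 to 0.31), without KO replicate 1 for Aldh3a2 (-0.04 to 0.30), Mup1 (0.14) and Hsd17b10 (0.08), and without KO replicate 2 for Olfr982 (-0.11 to 0.53), Tnfaip8l1 (0.02) and Ccl19 (-0.06). The cause was not tested. A signal over noise near 3 decides whether a probe counts as detected.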

Other observations

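Identifiers with 2 or more tested probes allow a look at how probes of the same transcript compare. There were 696 such identifiers with 1498 probes, and 48 of them had at least 1 probe past the threshold. In 37 of the 48 (77.1%) all probes lay on the same side of 0, as they did in 431 of the 648 identifiers with no probe past the threshold (66.5%). In 10 identifiers 2 or more probes passed, and in 9 of these the calls had the same direction. Among named genes, Cebpb had both probes past the threshold, and both Ccl21b probes lay higher in KO without passing.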
